A study of Homo sapiens with 2 samples.

Results

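Among the messenger RNAs of cells labelled PANC-1, an established human line of pancreatic duct carcinoma, were 10 genes best known from granulocytes and other myeloid cells: MPO, LYZ, PRTN3, ELANE, AZU1, PRSS57, CORO1A, ARHGDIB, LAPTM5 and CSF3R. They were 10 of 20981 genes listed in the count table. They were picked by their symbols because MPO and LYZ were lower and PRTN3 higher after WBSCR22 was targeted, so the values below that compare the libraries are a description, and no test is made of them. In all, 1 library came from cells with a control short hairpin RNA (shCtrl) and 1 from cells with a hairpin against WBSCR22 (shWBSCR22). Both were grown in DMEM with serum and antibiotics, and total RNA was made into TruSeq libraries. BUD23, once called WBSCR22, methylates the RNA of the small ribosomal subunit. The sources used here give neither the hairpin sequences, nor how the hairpins were delivered, nor whether the cells were a pool or a clone.

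Neutrophils carry several kinds of granules that are filled one after the other as the cell matures. The azurophil granules come first, at the promyelocyte stage, and hold myeloperoxidase, lysozyme and a family of serine proteases that digest engulfed microbes and matrix proteins. The genes of these proteins are usually used as markers of granulocyte precursors, and epithelial cells other than those that secrete lysozyme are not a known site of most of them.

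The libraries held 16121638 counts (shCtrl) and 15248099 counts (shWBSCR22). With 1 library per group no difference has a replicate check, so what is compared is a pair of libraries rather than the conditions. In bulk RNA, fewer cells of a type and less RNA per cell cannot be told apart. BUD23 itself had 3487 and 1892 counts, a log2 ratio of -0.71. Of 5 duct carcinoma markers, KRT8, KRT18 and KRT7 were abundant, with 77459, 51767 and 16550 counts in shCtrl, whereas KRT19, the keratin of duct cells, was at 0 in both libraries and EPCAM, an epithelial adhesion protein, had 15 and 0 counts. CDKN2A, which PANC-1 is known to have lost by deletion, had 12740 and 6346 counts. The CDKN2A counts and the lack of KRT19 go against the label, the abundant keratins do not, and the identity of the cells was not tested further.

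The 3 serine protease genes AZU1, PRTN3 and ELANE lie side by side on the short arm of chromosome 19 (GRCh38), and PRSS57 lies 129.598 kb before AZU1 on the other strand. AZU1 (ENSG00000172232) spans 825097 to 832018, PRTN3 (ENSG00000196415) 840960 to 848175 and ELANE (ENSG00000197561) 851014 to 856247, all on the plus strand, and PRSS57 (ENSG00000185198) spans 685546 to 695498. The gap from AZU1 to PRTN3 is 8.941 kb and that from PRTN3 to ELANE 2.838 kb. RefSeq places the AZU1 start inside that span. The windows from 250 bases before to 50 after the start of AZU1, PRTN3 and PRSS57 are shown because these neighbours went different ways between the libraries, as given further on. RefSeq windows (GRCh38.p14) were found for 7 of the 10 genes; MPO, LYZ and ELANE were not among them. In capitals are matches on either strand to GAGGAA, the core bound by the myeloid factor PU.1, to TTGCNNAA for C/EBP factors, to TGTGGT for RUNX factors, to AACNGT for MYB and to TATAAA, the TATA box. The windows are chr19:827587-827886, chr19:840749-841048 and chr19:695403-695702, printed 5′ to 3′ on the strand of the gene, which is minus for PRSS57.
AZU1: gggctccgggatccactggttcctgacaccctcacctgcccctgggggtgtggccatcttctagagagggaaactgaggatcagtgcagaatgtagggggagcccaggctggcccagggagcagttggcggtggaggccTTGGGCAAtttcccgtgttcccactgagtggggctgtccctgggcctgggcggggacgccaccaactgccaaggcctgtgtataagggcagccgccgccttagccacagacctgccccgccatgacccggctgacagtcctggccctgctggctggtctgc
PRTN3: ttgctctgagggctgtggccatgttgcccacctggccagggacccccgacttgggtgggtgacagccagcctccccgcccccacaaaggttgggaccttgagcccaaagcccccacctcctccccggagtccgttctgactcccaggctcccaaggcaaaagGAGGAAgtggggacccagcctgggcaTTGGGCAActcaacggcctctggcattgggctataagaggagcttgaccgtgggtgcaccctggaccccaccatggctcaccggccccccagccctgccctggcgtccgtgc
PRSS57: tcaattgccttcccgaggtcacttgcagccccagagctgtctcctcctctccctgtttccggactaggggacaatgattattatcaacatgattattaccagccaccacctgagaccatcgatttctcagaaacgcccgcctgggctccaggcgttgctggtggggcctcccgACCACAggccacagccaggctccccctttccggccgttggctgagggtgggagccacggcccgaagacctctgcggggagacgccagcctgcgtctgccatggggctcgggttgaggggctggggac

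The PRTN3 window held 1 match to the PU.1 letters, starting at position -88 from the gene start, and 1 to the C/EBP letters at -62. The AZU1 window held 1 match to the C/EBP letters at -111, and the PRSS57 window 1 to the RUNX letters at -77. No match overlapped another in these windows, and the MYB and TATA letters were not in them. Of 35116 windows of the same length, 27.9% held the PU.1 letters, 10.5% the C/EBP, 13.1% the RUNX, 21.7% the MYB and 11.5% the TATA letters. A match of letters is a description and not a shown binding site.

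Counts were scaled between the libraries by TMM (trimmed mean of M-values), and log2 ratios (shWBSCR22 over shCtrl) were computed after adding 0.5 counts. The first interval given after a log2 ratio is the exact 95% counting interval. Genes were called higher or lower at a log2 ratio of at least 1 in size, a 2-fold difference, if this interval excluded 0. Low counts were spread more widely than single reads would be. Their frequency, smoothed over 3 neighbouring counts and with the very lowest counts left out, peaked at 8 in shCtrl and 15 in shWBSCR22. A wider interval was therefore made from counts divided by these numbers. Neither interval holds any difference between cultures.

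By this rule 6 of the 10 genes were lower in shWBSCR22, 1 was higher and 3 were neither, where 11.9% of 12980 genes at a mean of at least 1 CPM (counts scaled to the library total) were lower and 12.2% higher (24.2% in either direction). With the wider interval 5 were lower and 1 higher, beside 2.98% and 4.21% of all genes (7.2% in either direction). All 10 passed the 1 CPM minimum, with PRSS57, ARHGDIB, LYZ and CORO1A doing so through shCtrl. The share of all genes called lower depended on level, at 26.6% for a mean of 1 to 3 CPM, where PRSS57, ARHGDIB and CSF3R lie, 15.7% for 3 to 10 CPM and 7.36% for 10 to 30 CPM, or 0.793%, 3.57% and 5.76% with the wider interval. Because the genes were picked on this contrast, nothing is read from these shares, nor from the ranks of MPO, LYZ and PRTN3 given below. The summed level of the 10 genes was nearly equal, 139 CPM in shCtrl and 136 in shWBSCR22, with PRTN3 alone at 28.2 and 104 CPM. Without MPO, LYZ and PRTN3 the other 7 summed to 55.8 and 30.9 CPM.

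**Figure D1:**
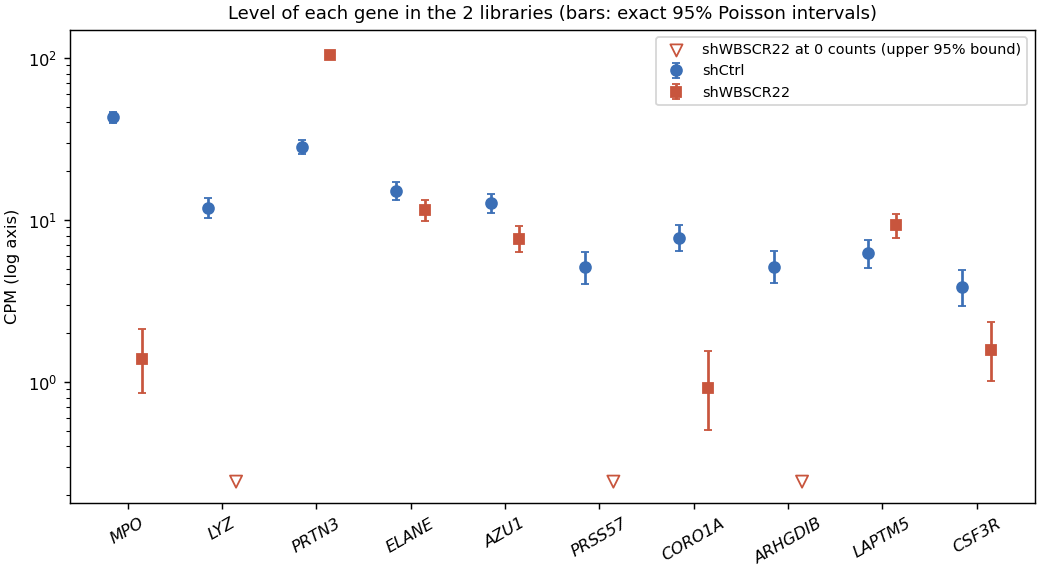
Level of each of the 10 genes in CPM (log axis) in shCtrl (circles) and shWBSCR22 (squares), 1 library each, with exact 95% Poisson intervals as bars; open triangles mark the upper bound of genes at 0 counts. MPO is at 42.9 and 1.38 CPM and PRTN3 at 28.2 and 104, while the levels of ELANE, AZU1 and LAPTM5 lie closer together.

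MPO encodes myeloperoxidase, the haem enzyme that makes hypochlorous acid from hydrogen peroxide and chloride. MPO (ENSG00000005381, chromosome 17, 58269856 to 58280935, minus strand) had 692 counts in the control library and 21 in the other. As FPKM, a level corrected for exon length and depth, this was 12.1 and 0.389. In shCtrl it was thus the third most abundant of the 10 genes, above 86.6% of all listed genes, and in shWBSCR22 above 41.2%. It was 29.4-fold lower, with a log2 ratio of -4.84 (-5.58 to -4.25; wider interval -8.91 to -2.68). Among 3003 genes at a mean of 10 to 30 CPM, 1 had a log2 ratio as low, MPO itself. None of its 50-base stretches occurred in a transcript of another gene in GENCODE release 29, and no gene overlaps it.

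LYZ encodes lysozyme, which cleaves the peptidoglycan of bacterial walls and is made by macrophages, granulocytes and several glandular epithelia. LYZ (ENSG00000090382) lies on chromosome 12 from 69348341 to 69354234 on the plus strand. Its 191 counts in shCtrl, or 6.70 FPKM, stood against 0 in shWBSCR22. Against a floor of 3 counts in the shWBSCR22 library it was 56.7-fold lower. Folds against this floor leave out counting error in the library that holds counts. The upper bound of the LYZ log2 ratio was -5.51, or -1.51 with the wider interval. Of all genes at 0 in shWBSCR22, LYZ was the 1 gene with at least 191 counts in shCtrl, and 26 had at least 82. Of its 50-base stretches 35.8% also occurred in transcripts of 364 other genes, and an antisense gene, AC020656.1, overlaps it. The sources used here do not say how reads shared between genes were counted, so the LYZ count is less certain than that of MPO.

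The proteases differed from one another. PRTN3 encodes proteinase 3, an active serine protease and the main target of the autoantibodies of granulomatosis with polyangiitis. Its 455 counts in shCtrl became 1585 in the knockdown library, 24.6 and 90.3 FPKM, and it was the most abundant of the 10 genes in both libraries. It was 3.91-fold higher, with a log2 ratio of 1.97 (1.82 to 2.12; wider 1.49 to 2.46). Among 2168 genes at a mean of 30 to 100 CPM, 4 had a log2 ratio as high, PRTN3 included.

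ELANE encodes neutrophil elastase, the protease that is mutated in severe congenital and cyclic neutropenia. It had 244 and 175 counts, or 14.7 and 11.1 FPKM, with a log2 ratio of -0.31 (-0.60 to -0.03; wider -1.43 to 0.70). AZU1 encodes azurocidin, a relative of elastase that has lost its protease activity and acts on microbes and monocytes instead. It had 204 and 117 counts, or 7.08 and 4.29 FPKM, with a log2 ratio of -0.63 (-0.98 to -0.30; wider -2.01 to 0.56). Both lay below 0 by the counting interval but short of 2-fold, and the wider intervals held 0.

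The log2 ratio of PRTN3 exceeded that of ELANE by 2.28 (1.95 to 2.61; wider 1.07 to 3.42) and that of AZU1 by 2.60 (2.23 to 2.98; wider 1.28 to 4.03), differences that do not depend on the scaling between the libraries. ELANE and AZU1 differed by 0.32 (-0.12 to 0.77; wider -1.28 to 2.09), an interval that holds 0. In FPKM, PRTN3 stood at 1.67 times ELANE in shCtrl and at 8.12 times in shWBSCR22, while ELANE stood at 2.07 and 2.59 times AZU1. The middle gene of the cluster was thus the 1 called higher, and the genes on either side were not called. No 50-base stretch of PRTN3 or ELANE occurred in another gene's transcripts, so a read of that length belongs to 1 of them. Of those of AZU1, 5.90% occurred elsewhere.

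PRSS57 encodes neutrophil serine protease 4, which cuts after arginine. It had 82 counts in shCtrl, or 4.65 FPKM, and none in the other library. A processed pseudogene on the other strand, RPS2P52, overlaps PRSS57, and no 50-base stretch of PRSS57 occurred in another gene's transcripts. With the floor of 3 counts PRSS57 was 24.3-fold lower, with an upper bound of the log2 ratio of -4.27, or -0.13 with the wider interval. Of 2648 genes at a mean of 1 to 3 CPM, 8.5% had counts in shCtrl and 0 in shWBSCR22. Few of these had as many counts as PRSS57, since 26 of all listed genes were at 0 in shWBSCR22 with at least 82 counts in shCtrl.

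**Figure D2:**
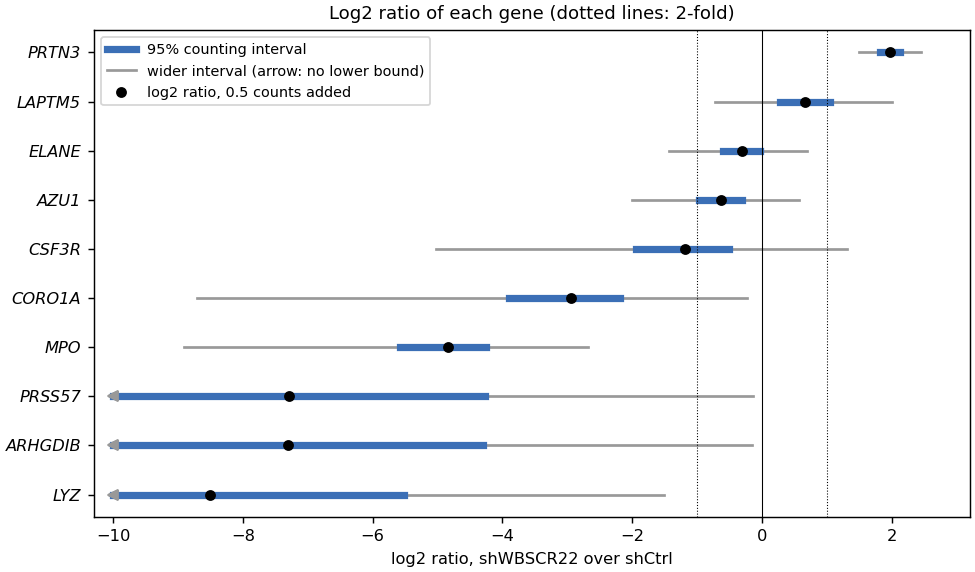
Log2 ratio, shWBSCR22 over shCtrl (horizontal axis), for the 10 genes, with the 95% counting interval (thick) and the wider interval (thin); arrows mark genes at 0 counts in shWBSCR22, which have no lower bound. PRTN3 (1.97) lies above the 2-fold line and MPO (-4.84) far below it, while the wider intervals of LAPTM5, ELANE, AZU1 and CSF3R cross 0.

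The other 4 genes encode proteins of the leukocyte cytoskeleton, lysosome and surface. CORO1A encodes coronin 1A, which binds actin filaments under the leukocyte membrane. CORO1A (ENSG00000102879, chromosome 16, 30182827 to 30189076, plus strand) had 125 and 14 counts, or 1.59 and 0.188 FPKM, and was 7.95-fold lower, with a log2 ratio of -2.95 (-3.90 to -2.19; wider -8.71 to -0.23). With FPKM and a pseudocount of 1 the ratio was -1.12. An antisense gene overlaps it, and 8.28% of its 50-base stretches occurred in 2 other genes. ARHGDIB (ENSG00000111348, chromosome 12, 14942017 to 14961728, minus strand) had 83 counts in shCtrl, or 2.44 FPKM. It was at 0 in shWBSCR22, 24.6-fold lower with the same floor, with upper bounds of -4.29 and, for the wider interval, -0.15. Its counts were nearly those of PRSS57.

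LAPTM5 encodes a lysosomal membrane protein that lowers surface antigen receptors in lymphocytes. LAPTM5 (ENSG00000162511, chromosome 1, 30732469 to 30757820, minus strand) had 100 and 141 counts, or 1.89 and 2.81 FPKM, with a log2 ratio of 0.66 (0.28 to 1.05; wider -0.73 to 2.002). It was not called in either direction. A microRNA gene, MIR4420, overlaps LAPTM5. CSF3R encodes the receptor for granulocyte colony-stimulating factor (G-CSF), which drives neutrophil production. CSF3R (ENSG00000119535, chromosome 1, 36466043 to 36483278, minus strand) had 62 and 24 counts, or 0.455 and 0.186 FPKM, with a log2 ratio of -1.19 (-1.95 to -0.50; wider -5.02 to 1.31). It was called lower with the counting interval alone, and not when FPKM with a pseudocount of 0.1 replaced the counts (-0.96). It was also the gene with the lowest FPKM of the 10 in shCtrl.

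Ordered by FPKM in shCtrl, the genes ran from PRTN3 through ELANE, MPO, AZU1, LYZ, PRSS57, ARHGDIB, LAPTM5 and CORO1A to CSF3R. Exact 95% Poisson intervals, for counting error alone, overlapped between ELANE and MPO (12.9 to 16.6 and 11.2 to 13.1 FPKM), between AZU1 and LYZ (6.14 to 8.12 and 5.78 to 7.72), between ARHGDIB and LAPTM5 (1.94 to 3.03 and 1.54 to 2.30) and between LAPTM5 and CORO1A (up to 1.89). In shWBSCR22 the order was PRTN3, ELANE, AZU1, LAPTM5, MPO, CORO1A and CSF3R, with the remaining 3 at 0. There the intervals of MPO, CORO1A and CSF3R overlapped (0.241 to 0.595, 0.103 to 0.315 and 0.119 to 0.277 FPKM). The azurophil proteins held the first 6 places in shCtrl and the first 3 in shWBSCR22.

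**Figure D3:**
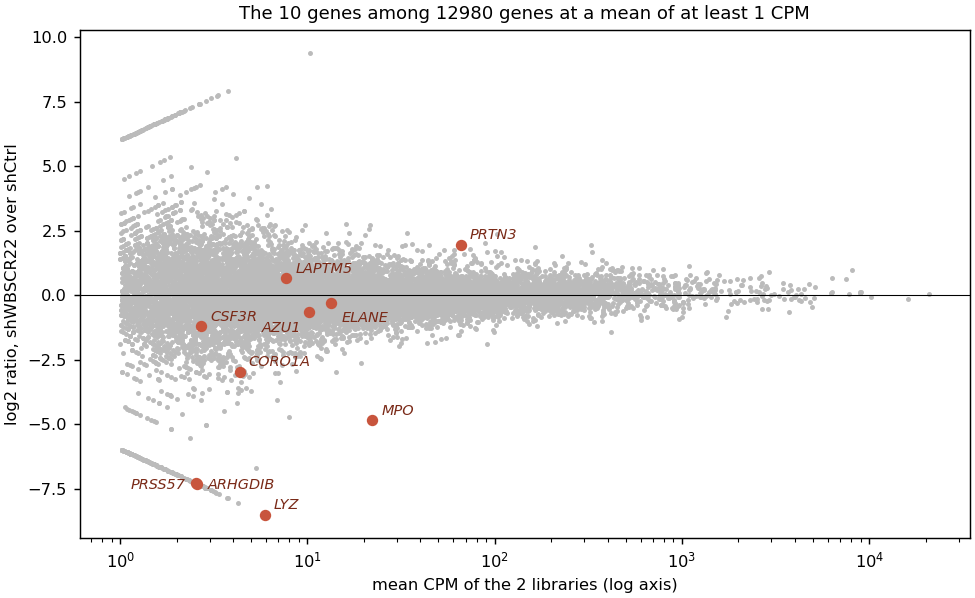
Log2 ratio, shWBSCR22 over shCtrl, (vertical axis) against the mean CPM of the libraries (log axis) for 12980 genes (grey), with the 10 genes in colour. MPO at -4.84 lies below the grey cloud at its level, and PRTN3 at 1.97 lies at the upper edge of it; PRSS57 and ARHGDIB lie on the lower diagonal line, which is formed by genes at 0 counts in shWBSCR22, and LYZ lies at its end. Among all 12980 genes, 1.82% were at 0 in shWBSCR22 with counts in shCtrl.

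Genes around the cluster on chromosome 19 were then compared. Of 25 other genes listed within 200 kb of AZU1, PRTN3 and ELANE, 19 were at a mean of at least 1 CPM, of which 4 were higher, 1 lower and 14 neither, with a median log2 ratio of 0.15 beside -0.02 over all genes. PLPPR3 encodes a phospholipid phosphatase-related membrane protein, and its gene lies 3.119 kb before AZU1 on the minus strand. It had 175 and 582 counts, with a log2 ratio of 1.90 (1.65 to 2.15, wider 1.11 to 2.73). CFD, which encodes complement factor D and starts 3.395 kb after ELANE, had 5072 and 9016 counts (1.00, 0.95 to 1.05; wider 0.83 to 1.16) and fell just short of the size rule. The order along the chromosome was therefore PLPPR3 higher, AZU1 not called, PRTN3 higher, ELANE not called and CFD just under 2-fold.

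The log2 ratio of PRTN3 exceeded that of CFD by 0.97 (0.81 to 1.13; wider 0.46 to 1.49), and that of PLPPR3 by 0.07 (-0.23 to 0.36; wider -0.90 to 1.01). CFD was far more abundant than PRTN3, at 257 and 482 FPKM. Next to PRSS57, FSTL3, an inhibitor of activin, had 5766 and 7232 counts (0.49), and PALM, a protein that shapes the plasma membrane, had 1968 and 5082 (1.54, 1.46 to 1.61). Farther out, CNN2, a calponin that binds actin, was lower (-1.22, -1.48 to -0.98), and ABCA7, a lipid transporter, had a log2 ratio of 0.94. PRSS57 was thus at 0 in shWBSCR22 between neighbours that were not lower.

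**Figure D4:**
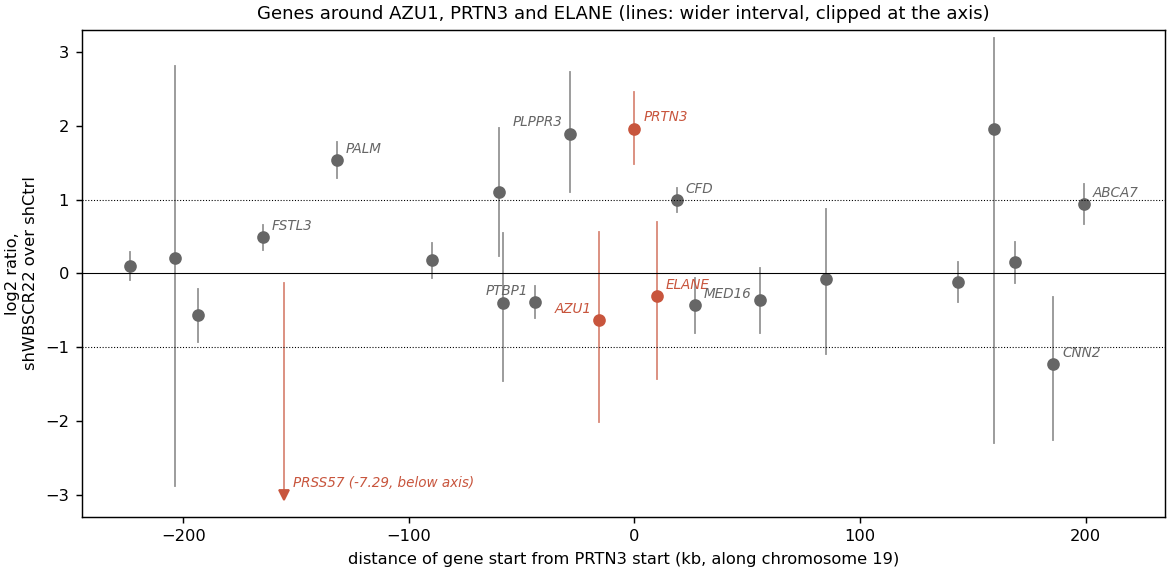
Log2 ratio, shWBSCR22 over shCtrl, for genes at a mean of at least 1 CPM within 200 kb of the cluster, by the distance of the gene start from the PRTN3 start in kb; points are genes, lines the wider interval, and colour marks the described genes. PRTN3 and PLPPR3 (1.97 and 1.90) stand above the 2-fold line, with AZU1 (-0.63) between them and ELANE (-0.31) after.

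Around the other genes, 76 genes lay within 5 rows of one of the 10 in the table's order along the chromosome, those on chromosome 19 included. Of these 49 were at a mean of at least 1 CPM, of which 10 were higher, 2 lower and 37 neither, with a median log2 ratio of 0.17. LPO, the lactoperoxidase gene that ends 1.337 kb from MPO, was at 0 in both libraries, and TSPOAP1 on the other side had 11 and 8 counts. YEATS4, a chromatin reader next to LYZ, had 218 and 158 counts (-0.30). MAPK3, the kinase ERK1, and BOLA2B, an iron-sulphur protein with near-identical copies, flank CORO1A and had log2 ratios of 0.17 and -0.94. MRPS15, a mitochondrial ribosomal protein whose gene lies 1.605 kb from CSF3R, had 5481 and 5389 counts (0.14). MATN1-AS1 next to LAPTM5 had 4 and 60 counts (3.91; wider 0.05 to 14.3). The 2 genes called lower among the 49 were MKS1, a cilium gene 2 rows from MPO, with 242 and 77 counts (-1.48; wider -3.18 to -0.12), and AL591845.1, 5 rows from CSF3R, with 98 and 9 counts (-3.21; wider -11.8 to -0.0047).

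Other granule proteins were read from lists made with earlier results of these data known. Of 18 azurophil granule proteins 14 were listed and 10 were at a mean of at least 1 CPM, with 1 higher, 3 lower and 6 neither and a median log2 ratio of -0.44. The called genes were PRTN3, MPO, LYZ and PRSS57. The 4 that are not among the 10 genes were CTSC, the cathepsin that activates the granule proteases, SRGN, the proteoglycan that packs them, CD63, a membrane protein of many lysosome-like organelles, and GUSB, a lysosomal glucuronidase. Their log2 ratios were -0.57, -0.21, 0.00 and 0.16, and none was called. All 4 are also expressed widely outside blood.

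The remaining listed azurophil genes lay under 1 CPM and had counts in shCtrl alone. CTSG, the cathepsin G protease, had 14 counts against 0, BPI, which binds endotoxin, 11 against 0, and the defensins DEFA4 and DEFA3 10 and 4 against 0. Over all genes under 1 CPM with any count, 54.7% of 5040 had counts in shCtrl alone and 25.3% in shWBSCR22 alone, so this direction was the common one at such levels. DEFA3 is nearly identical to other defensin genes, and its count is uncertain.

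Of 16 proteins of the later, specific and gelatinase granules, 10 were listed and 3 were at a mean of at least 1 CPM. SLPI, a secreted inhibitor of elastase that many epithelia also make, had 5071 and 9816 counts (log2 ratio 1.12, 1.07 to 1.17; wider 0.96 to 1.28). MMP9, the gelatinase B, had 13 and 38 counts (1.67; wider -1.78 to 5.85). These were called higher, MMP9 with the counting interval alone, and CFP, properdin, was not called (-0.53). CAMP, PGLYRP1, CEACAM8 and CHI3L1 had 19, 18, 14 and 4 counts in shCtrl and 0 in shWBSCR22, LCN2 had 5 and 16, and CTSH and TCN1 were at 0.

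Subunits of the phagocyte NADPH oxidase, which makes the superoxide from which the substrate of MPO is formed, were read next. Of 7 subunits 3 were at a mean of at least 1 CPM and none was called. CYBA, a membrane subunit that many cell types make, had 90782 and 159300 counts (log2 ratio 0.98, 0.97 to 0.99), just short of the size rule. RAC2 and RAC1, the GTPases of the complex, had -0.17 and -0.10. CYBB, its catalytic subunit in phagocytes, had 12 and 0 counts, NCF4 had 11 and 0, and NCF1 was at 0 in both. CYBB, NCF4 and NCF1 were thus at or near 0 in the libraries that held MPO and PRTN3.

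Inhibitors of the granule proteases ranged widely in level. Of 9 inhibitors 8 were listed and 6 were at a mean of at least 1 CPM, with SLPI higher and SERPINA1, the plasma antitrypsin, lower. SERPINA1 had 36 and 0 counts, 10.7-fold lower against the floor of 3 counts. It was lower with the counting interval alone, as its wider upper bound was 1.42. SERPINB1 and SERPINB6, which block elastase and cathepsin G inside cells, had 702 and 595 and 13668 and 15623 counts, with log2 ratios of -0.07 and 0.36. PI3, elafin, had 113 and 183 counts (0.86) and was not called.

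Receptors and signalling genes were next. Of 17 haematopoietic cytokines and receptors 9 were at a mean of at least 1 CPM, with 1 higher and 4 lower and a median log2 ratio of -0.996. CSF2RA, the alpha chain of the receptor for granulocyte-macrophage colony-stimulating factor, had 1129 and 434 counts (-1.21, -1.38 to -1.05; wider -1.84 to -0.63) and was the 1 gene of this list called with either interval. IL6R, an interleukin 6 receptor chain, KITLG, the ligand of KIT, and CSF3R were lower with the counting interval alone (-1.34, -1.57 and -1.19), and CSF1, the macrophage growth factor, was higher with it (1.07). CSF3, the ligand of CSF3R, was at 0 in both libraries. Under 1 CPM, FLT3, KIT and FLT3LG had 30, 10 and 1 counts in shCtrl and 0 in shWBSCR22, and IL5RA had 0 and 16.

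Of 15 genes of G-CSF receptor signalling 11 were at a mean of at least 1 CPM, with 1 higher and 3 lower. PTPN11, the phosphatase SHP2, had 320 and 52 counts (-2.44, -2.91 to -2.03; wider -4.58 to -0.90) and JAK1, a receptor kinase, 119 and 257 (1.27; wider 0.19 to 2.38). SOCS1, a feedback inhibitor, had 44 and 0 counts, and LYN, a Src-family kinase, 185 and 78 (-1.07), both lower with the counting interval alone. Of 20 myeloid transcription factors 14 were at a mean of at least 1 CPM, with 3 higher and 0 lower, none of them with the wider interval. CEBPE, which drives late granule genes, had 0 and 39 counts, 14.6-fold higher with a floor of 3 in shCtrl. MYB had 17 and 72 counts (2.21) and ETS1 12 and 35 (1.67). SPI1, which encodes PU.1, had 65 and 31 counts (-0.89; wider -4.10 to 1.39) and was not called, nor were RUNX1 (0.31), CEBPA (0.31) and CEBPB (-0.65). Under 1 CPM, LMO2 and MEIS1 had 25 and 15 counts in shCtrl and 0 in shWBSCR22, and IRF8 had 0 and 18.

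Relatives of CORO1A, LAPTM5, MPO and LYZ were compared with them. Of 7 coronins 6 were at a mean of at least 1 CPM, and of these CORO1A alone was lower. CORO2B, under 1 CPM, had 6 and 0 counts. CORO1C had 245 and 171 counts (-0.35), CORO7 497 and 697 (0.65) and CORO2A, higher with the counting interval alone, 80 and 148 (1.05). LAPTM4A and LAPTM4B, relatives of LAPTM5, had log2 ratios of -0.48 and 0.05. PXDN, a peroxidase of the extracellular matrix related to MPO, had 881 and 1417 counts (0.85) and was not called. DUOX1, another haem peroxidase, lay under 1 CPM with 18 and 0 counts. LYG1, a relative of lysozyme, had 17 and 0 counts.

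**Figure D5:**
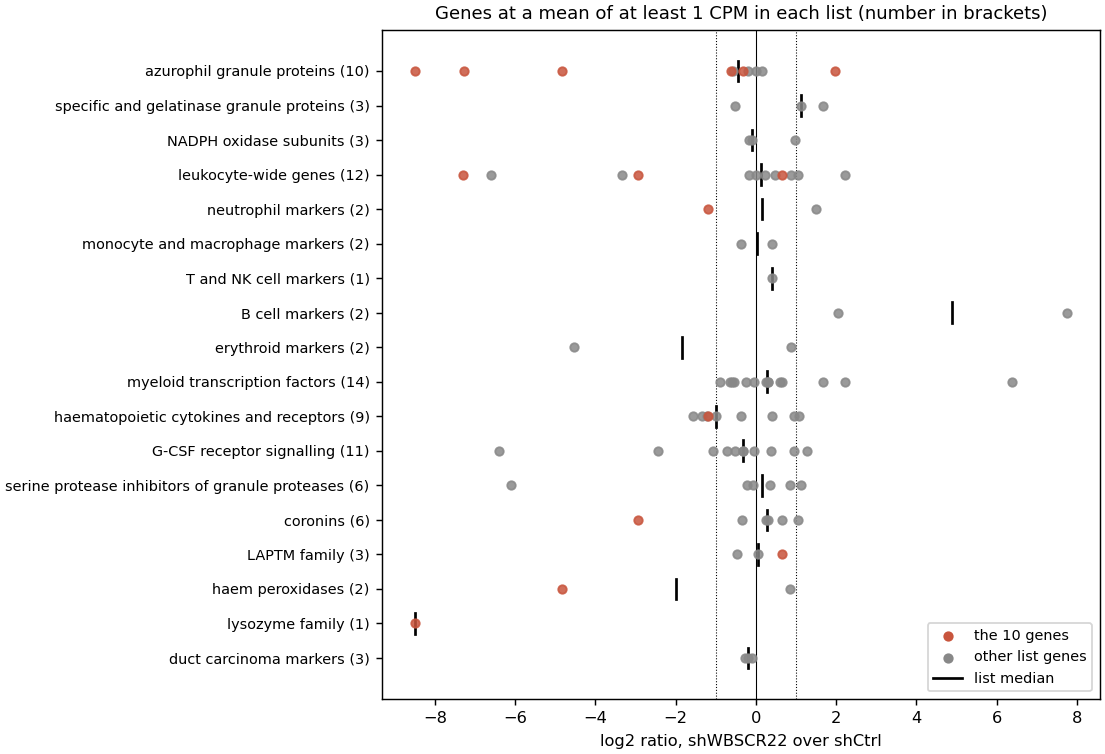
Log2 ratio, shWBSCR22 over shCtrl (horizontal axis), for each gene at a mean of at least 1 CPM in 18 lists, with the number of genes in brackets, the list median as a bar and the described genes in colour. In the azurophil list the genes outside the 2-fold lines are PRTN3, MPO, LYZ and PRSS57, and the other 6, from AZU1 at -0.63 to GUSB at 0.16, lie inside them.

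Markers of blood cells were examined beside these values. Of 30 leukocyte-wide genes 25 were listed and 12 were at a mean of at least 1 CPM, of which 2 were higher, 4 lower and 6 neither, with a median log2 ratio of 0.11 and a summed level of 104 CPM in shCtrl and 79.7 in shWBSCR22. The lower ones were ARHGDIB, CORO1A, CD74 and LCP1. CD74, the invariant chain of MHC class II, had 211 and 18 counts, with a log2 ratio of -3.35 (wider -7.99 to -0.95). LCP1, the leukocyte plastin, had 51 and 0 counts, 15.1-fold lower against the floor of 3 counts. LCP1 was lower with the counting interval alone, as its wider upper bound was 0.72. CD37 (8 and 35 counts) and SELPLG (49 and 90) were higher with the counting interval alone. Another 11 leukocyte-wide genes with counts lay under 1 CPM, of which 8 had counts in shCtrl alone, among them ARHGAP30 with 24, NCKAP1L with 21 and LSP1 with 11, and 3 in shWBSCR22 alone. Over all the leukocyte marker lists without the 10 genes, 15 of 20 such genes (75%) had counts in shCtrl alone. This share was 54.7% over all genes under 1 CPM and 75.5% over all lists without the 10 genes. At a mean of at least 1 CPM, 5 of 15 genes of these leukocyte marker lists were higher and 2 lower. Together these lists summed to 115 CPM in shCtrl and 126 in shWBSCR22. CD52 and CD53, which nearly all leukocytes express, were at 0 in both libraries, and CD48 had 0 and 1 counts. PTPRC and HCLS1 were not analysed here.

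Markers of single blood lineages were read next. All 6 markers of granulocyte precursors, AZU1, CTSG, ELANE, MPO, PRSS57 and PRTN3, had counts in shCtrl and 4 of them in shWBSCR22. The 6 summed to 105 and 124 CPM, of which PRTN3, picked because it rose, made up 28.2 and 104. Each of the others was lower in shWBSCR22, with MPO at 42.9 and 1.38 CPM, and ELANE and AZU1 short of 2-fold. Of 10 neutrophil markers 6 were listed, with a sum of 18.05 and 32.6 CPM, most of it from S100A9, a calcium-binding protein that epithelia make as well (178 and 450 counts, 1.502; wider 0.67 to 2.37). Its partner S100A8 had 31 and 0 counts, the integrin ITGAM 20 and 0 and the Fc receptor FCGR3B 0 and 23, all under 1 CPM. S100A12 was at 0 in both libraries. Of 14 monocyte and macrophage markers 6 were listed and summed to 4.22 and 2.69 CPM. Of these CD14 had 32 and 22 counts and CSF1R 16 and 19. AIF1, TYROBP and FCGR1A had 11, 5 and 4 counts in shCtrl and 0 in shWBSCR22, and FCER1G was at 0 in both. Of 11 T and NK cell markers 4 were listed and summed to 9.80 and 10.1 CPM, mostly from CD7, with 130 and 154 counts. NKG7 and LCK had 18 and 10 counts in shCtrl and 0 in shWBSCR22, and GNLY was at 0 in both.

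B cell markers summed to 2.05 and 12.9 CPM over 4 listed genes, where MZB1 had 0 and 101 counts. Erythroid markers summed to 12.1 and 16.4 CPM over 4 listed genes, of which HBA2, an alpha globin gene nearly identical to HBA1, had 140 and 229 counts and HBB 38 and 1. The part that any blood cell RNA has in the values of the 10 genes was not tested.

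The genes whose levels over both libraries were nearest to those of MPO, LYZ and PRTN3 were found by the distance of log2 CPM with 0.5 added, over 2 libraries. Nearest to MPO were TM4SF19 with 407 and 46 counts, TUBA1C and RAB1B with 324 and 52, at distances of 1.18, 1.48 and 1.51. No gene lay close to MPO, whose distance to the nearest gene was larger than that of LYZ or PRTN3. Nearest to LYZ were KCTD5, PDCD2L and CDH15, with 138, 122 and 120 counts in shCtrl and 0 in shWBSCR22, at 0.45, 0.61 and 0.64. Nearest to PRTN3 were CNFN with 470 and 1608 counts, FER1L4 with 466 and 1409 and FBXO2 with 515 and 1324, at 0.05, 0.17 and 0.31.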

How the data were processed

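Total RNA from cells labelled PANC-1 was sequenced with 1 library per group, and groups follow the treatment in the labels. The authors deposited raw counts per gene and FPKM per gene. Per the submitters' processing notes, bcl2fastq, FastQC, HISAT2, StringTie and DESeq were used with GRCh38; the sources used here give neither their roles nor the counting program, the use of strand or the annotation release. The length behind the deposited FPKM matched the summed exon length of GENCODE release 29 within 0.1% of a common factor for 97.0% of 11454 genes with over 30 counts, so FPKM depends on all annotated exons.

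TMM scaling (edgeR 4.0.16, R 4.3.3; factors 1.03 and 0.970) used genes at a mean of at least 1 CPM. Intervals are exact conditional binomial (ratios, Clopper-Pearson) or Poisson (levels). Since the reads carry no stated molecular identifiers, PCR copies may be counted, and the intervals cover counting error only. The floor of 3 counts covers such error only in the library without counts. Having 1 library per group, the comparison allows no test, and no p-value is given. Shared stretches of 50 bases were searched on both strands of GENCODE release 29 transcripts. The method was tested on simulated data, with an outcome that is not given here. Named genes were the 10 genes, genes next to them or within 200 kb of the chromosome 19 cluster, from each list up to 4 genes with the largest log2 ratio in size at a mean of at least 1 CPM, and the 3 nearest genes by level; further list genes were named after their values were seen. The members and lists were chosen with earlier results of these data known. Alternatives tried were scaling by total count, by upper quartile and by DESeq2 (1.42.0), adding 2 counts, deposited FPKM with pseudocounts of 0.1 and 1, the wider interval and other minimum levels. Some list genes were not analysed here.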

Additional observations from a re-analysis of the deposited data

How the results depend on the processing

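Over the alternatives run, no log2 ratio of the 10 genes changed sign. PRTN3 ranged from 1.84 to 1.98, MPO from -4.93 to -3.24, LYZ from -8.54 to -2.94, PRSS57 from -7.33 to -2.50, ARHGDIB from -7.34 to -1.78 and CORO1A from -3.03 to -1.12, with the value nearest 0 from FPKM and a pseudocount of 1 in each of these 6. CSF3R, from -1.27 to -0.29, lost its call with the wider interval and with FPKM at either pseudocount. Of the 10 genes, 2 in place of 6 were called lower at a mean of at least 5 CPM, where PRSS57, ARHGDIB, CORO1A and CSF3R are left out by construction. The lists held 15 genes called higher and 16 lower. These became 7 and 10 with FPKM and a pseudocount of 1, 6 and 8 with the wider interval, 23 and 46 over every gene with at least 1 count, and 5 and 6 at 5 CPM. The neighbouring genes within 5 rows or 200 kb, together 11 higher and 3 lower, became 6, 7, 18 and 7 higher under the same settings in that order, and 11 lower over every gene with a count. Over all genes, 1587 higher and 1548 lower became 520 and 455, 547 and 387, 2890 and 3801, and 584 and 572. Total-count scaling gave 1432 and 1748. Beyond the numbers of genes tested, the cause was not tested. No paired analysis was possible because each group has 1 library. Depth limits genes under 1 CPM, where 1 library was often at 0.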
